A study of Mus musculus with 6 samples.

Results

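The genes of the proteasome, its activators, its inhibitor and its assembly factors were followed in BaF3, a mouse cell line of pro-B origin that depends on interleukin-3. Members were all genes whose symbol is Psm followed by a letter from a to g and a number, without pseudogenes and without the 3 immunoproteasome genes Psmb8, Psmb9 and Psmb10, which are given beside them. This rule took 47 of the 18946 genes in the deposited tables, and all 47 were in both tables. One of them, Psmc3ip, matches by its letters alone: it encodes a factor of meiotic recombination and is no proteasome subunit. The CTdel group received the plasmid pmax-Clover-CTdel, taken here as the mutated ICN plasmid that the study's design text lists. The ICN group received pmax-Clover-ICN, Clover with the intracellular part of Notch1, and the con group received pmax-Clover, which carries the green fluorescent protein Clover alone. The medium of all 3 groups held interleukin-3 at 2 ng/mL and 10% serum, and cells were nucleofected and sorted 24 h later. Neither what CTdel removes nor the origin of the ICN insert is stated in the sources used here. Each group had 2 libraries. The labels do not say whether these are separate cultures, and the p-values below therefore reflect library-to-library spread, which may be technical.

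The proteasome degrades proteins marked with ubiquitin. Its barrel, the 20S core, is built of alpha rings (Psma) around beta rings (Psmb) that hold the cutting sites, and the 19S cap adds a ring of ATPases (Psmc) and non-ATPase subunits (Psmd) that bind, strip and unfold substrates; core and caps together are the 26S proteasome. The 11S activators (Psme1 to Psme3) and PA200 (Psme4) open the core in place of a 19S cap, chaperones such as Psmg1 and Psmg2 guide its assembly, and Psmf1 is an inhibitor. Interferon can induce Psme1, Psme2 and the immunoproteasome subunits, which replace their widely used counterparts in the core. When the proteasome is inhibited, the transcription factor Nrf1 (Nfe2l1) induces the 26S genes together.

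Promoters of 3 members are shown: the activator genes Psme1 and Psme2, which were higher than con in all 4 CTdel and ICN libraries, and Psmb5, a core subunit. The part of these promoters in the expression values was not tested. Each run is the RefSeq window of 300 bases on GRCm38.p6, from 250 bases before the annotated start, on the gene's own strand. The Psme1 window is chr14:55578244-55578543 on the plus strand, with capitals on a match to the interferon-stimulated response element, searched as GAAA, any 2 bases, GAAA. The Psme2 window is chr14:55591052-55591351 on the minus strand and has no such match. The Psmb5 window is chr14:54617946-54618245 on the minus strand, with capitals on a match to TGACNNNGC, the antioxidant response element that Nrf1 can bind.
Psme1: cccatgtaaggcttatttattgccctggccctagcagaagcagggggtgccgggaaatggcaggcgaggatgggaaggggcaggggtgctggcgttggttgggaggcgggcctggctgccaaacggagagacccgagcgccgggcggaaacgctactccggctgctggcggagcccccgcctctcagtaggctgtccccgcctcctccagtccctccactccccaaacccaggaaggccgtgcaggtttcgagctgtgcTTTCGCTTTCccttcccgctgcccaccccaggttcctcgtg
Psme2: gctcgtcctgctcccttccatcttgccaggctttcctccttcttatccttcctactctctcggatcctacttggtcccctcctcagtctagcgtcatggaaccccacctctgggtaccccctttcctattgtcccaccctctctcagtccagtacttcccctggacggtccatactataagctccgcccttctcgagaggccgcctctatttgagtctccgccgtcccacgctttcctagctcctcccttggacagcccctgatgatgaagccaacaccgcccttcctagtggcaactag
Psmb5: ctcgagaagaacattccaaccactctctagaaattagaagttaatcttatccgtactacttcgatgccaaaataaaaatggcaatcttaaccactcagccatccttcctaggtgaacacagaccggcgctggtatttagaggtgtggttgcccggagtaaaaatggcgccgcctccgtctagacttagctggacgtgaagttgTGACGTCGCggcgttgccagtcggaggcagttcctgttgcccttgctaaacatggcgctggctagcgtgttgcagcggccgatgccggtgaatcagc
The capitals in Psme1 are TTTCGCTTTC, a match on the opposite strand at bases 9 to 18 counted from 0 at the start, and those in Psmb5 are TGACGTCGC at bases -47 to -39.

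RefSeq windows were found for 39 of the 47 members, and 5 motifs were searched on both strands. The interferon-stimulated response element was in 5 of the 39 (12.8%), namely Psmb3, Psmd4, Psmd9, Psme1 and Psmg4, against 3.99% of all 27025 genes with a window. It was in 0 of the 3 immunoproteasome genes. Log2 differences from con in CTdel and ICN were 0.70 and 0.47 for Psme1 and -0.14 and -0.10 for Psmb3. They were 0.07 and 0.23 for Psmd4, -0.03 and 0.11 for Psmd9, and 0.04 and -0.44 for Psmg4. TGACNNNGC was in 6 of the 39 (15.4%), namely Psmb5, Psmb6, Psmc6, Psmd12, Psmd9 and Psme4, against 14% of all genes. CCAAT, the CCAAT box, was in 35.9% of members and 41.1% of all genes. TTCNNNGAA, the GAS element bound by STAT factors, was in 5.13% of members (Psmd2 and Psmg1) and 9.55% of all genes. The heat shock element, searched as GAA, any 2 bases, TTC, any 2 bases, GAA, was in 0 members and in 0.662% of all genes. No match to one motif overlapped a match to another in a member's window.

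FPKM summed to between 489693 and 507894 per library, and read totals are unknown. Lowest values of short RNA genes placed the libraries at 0.963 to 1.08 times the depth of con replicate 1. In each other library only 11 or 12 of the 21 RNA lengths compared lay within 2% of its estimate, so these depths are rough. Notch1 was higher by 4.39 on the log2 scale in CTdel (adjusted p = 0.0947) and by 7.51 in ICN (adjusted p = 0.103). Of 13 pro-B and B lineage markers, 11 were below FPKM 1 in every library, whereas the interleukin-3 receptor gene Csf2rb lay between 166 and 297. All 6 T cell markers, 4 of 8 myeloid markers and 5 of 6 fibroblast and endothelial markers were below FPKM 1 in every library. Among tested markers, Ptprc, the pan-leukocyte antigen CD45, rose by 2.06 on the log2 scale in CTdel (adjusted p = 0.0263). Its difference in ICN was 1.095 and did not pass. Ptprc was the highest of 5 tested interleukin-3 receptor and blood markers, whose median in CTdel was -0.16. Of these 5, 2 were higher and 2 lower than con in both replicates in CTdel (26.2% and 35.8% of all tested genes were). The mast cell gene Cpa3 was at 4.56 and 1.64 FPKM in CTdel, 10.1 and 2.34 in ICN, and 26.7 and 6.14 in con. Its log2 change in CTdel was -1.88 (adjusted p = 0.0437). The part of these markers in the proteasome values was not tested.

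Proteasome genes were expressed well above most genes. In con, 43 of the 47 members had a mean above 13.96 FPKM, the median of the 11050 genes tested. FPKM is scaled by transcript length, so levels can be set side by side. The 31 widely used 26S subunits had con means from 65.2 (Psma3) to 231 FPKM (Psmb4), a range of 3.55-fold. The medians of their con means were 182 FPKM for the 7 beta subunits, 128 FPKM for the 7 alpha subunits, 109 FPKM for the 6 ATPases and 84.0 FPKM for the 11 non-ATPase subunits. The assembly factors and the inhibitor lay lower, from 11.2 FPKM (Psmd9) to 49.8 FPKM (Psmd5). Psma8, the alpha subunit of the testis, was at 16.7 ± 0.23, Psme2b at 1.27 ± 1.17 and Psmb11, the beta subunit of the thymus, at 0.44 ± 0.04 FPKM (SD, n = 2). Along the order of con means, 5 of the 46 pairs of neighbours did not overlap between their libraries, so most neighbours did not differ beyond their spread.

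**Figure D1:**
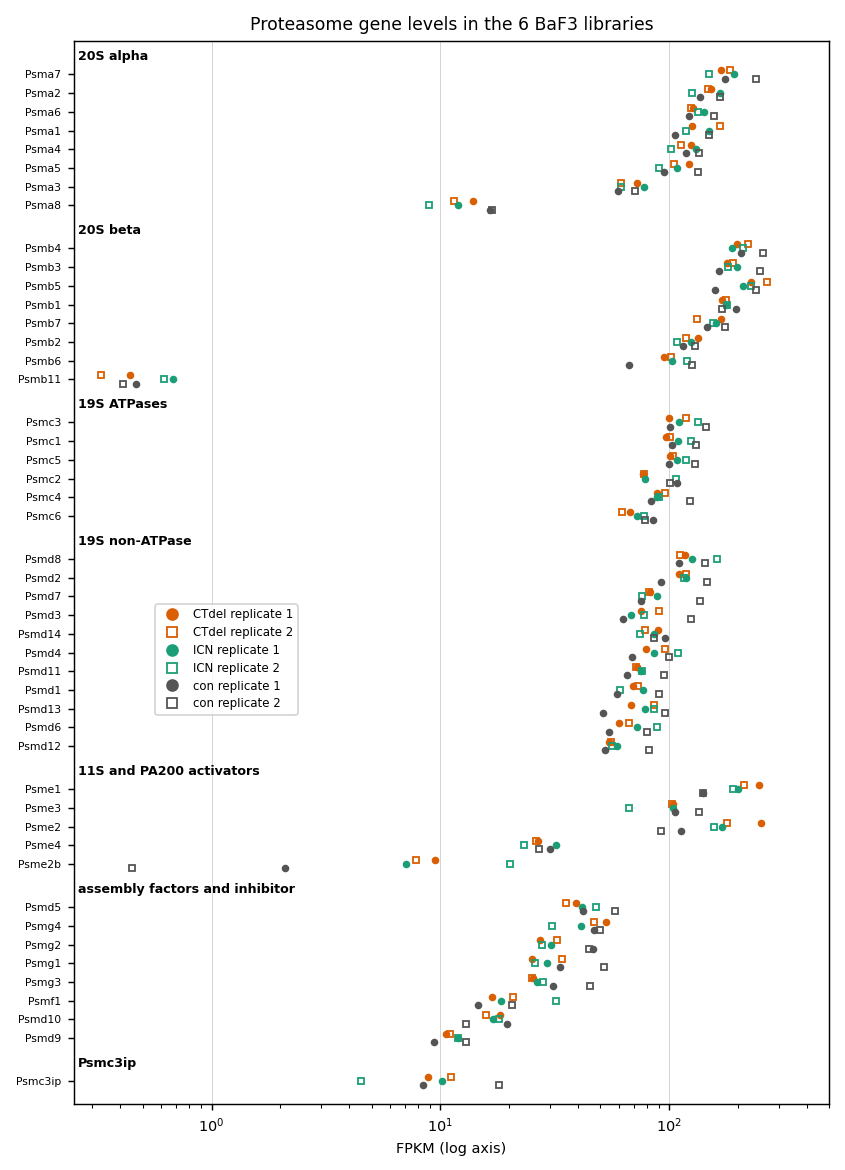
FPKM of the 47 members in each of the 6 libraries, on a log axis, grouped by role and ordered by con mean within a role. Filled circles are replicate 1 and open squares replicate 2; the 31 widely used 26S subunits sit between 51.0 and 266 FPKM, with Psmb11 below FPKM 1.

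No member passed the test (adjusted p under 0.05) in any comparison. Against con, 0 of the 46 tested members were called in CTdel, where 1.41% of all tested genes were called, and 0 in ICN, where 0.0362% were. For both forms together against con, 0 members were called beside 1.11% of all genes. At an unadjusted p under 0.05 there were 4 members in CTdel (11.8% of all genes), 4 in ICN (15%) and 6 in both forms together (15.4%). Of these, 3 were higher (7.79% of all genes) and 1 lower (3.99%) in CTdel, 2 higher (10%) and 2 lower (5.03%) in ICN, and 3 higher (9.87%) and 3 lower (5.57%) in both forms together. Leaving out an ICN or a CTdel library gave calls of Psme2b, Psme2, Psmc3ip or Psmg1 in some comparisons. In each of these comparisons more genes were also called among all tested genes than with all 6 libraries. A group then held a single library. The median log2 difference of the members was -0.11 in CTdel, beside -0.06 over all tested genes, and -0.06 in ICN, beside 0.00. The standard error of a member's difference had a median of 0.22, and in this fit the smallest called difference of any gene was 1.27 in CTdel and 3.15 in ICN. In bulk RNA, fewer cells of a type and less RNA per cell cannot be told apart.

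The 26S genes differed in opposite directions in the 2 replicates. In CTdel, 21 of the 31 were higher than con in replicate 1 and lower in replicate 2, where 16.4% of all tested genes were. In ICN, 23 of the 31 were, where 21.7% of all genes were. Both groups were set against the same con library in each replicate, so these counts are not separate observations. The median log2 difference of the 31 in CTdel was 0.13 in replicate 1 and -0.31 in replicate 2, and in ICN 0.18 and -0.23. Of the 31, only Psma1 and Psmb5 were higher in CTdel in both replicates (26.2% of all tested genes were), and only Psmd4, Psmd6 and Psmd8 in ICN (29.8%). Lower in both replicates were 7 in CTdel (35.8% of all genes), namely Psma7, Psmb4, Psmc1, Psmc2, Psmc3, Psmc6 and Psmd14, and 3 in ICN (26.7%), namely Psmb4, Psmc6 and Psmd14.

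**Figure D2:**
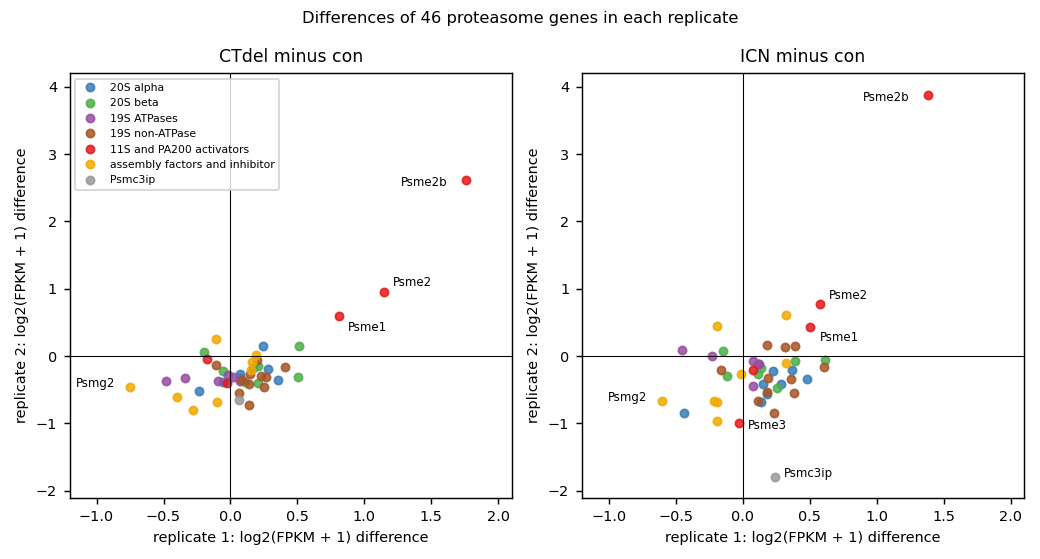
Log2(FPKM + 1) difference from con of the 46 tested members in replicate 1 (horizontal) and replicate 2 (vertical), with CTdel minus con in the left panel and ICN minus con in the right. Most 26S subunits lie right of 0 and below 0 (21 of 31 in CTdel, 23 of 31 in ICN), while Psme1, Psme2 and Psme2b lie above 0 on both axes. Both panels subtract the same con libraries.

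The 2 con libraries lay further apart than those of the other groups. The 31 subunits summed to 3466 and 3591 FPKM in CTdel, 3623 and 3589 in ICN, and 3228 and 4279 in con. By this sum the 4 CTdel and ICN libraries lay between the con libraries. Gene by gene, all 4 did so for 13 of the 31. Across the tables, 19 of the 31 were higher in replicate 2 than in replicate 1 in CTdel, 16 in ICN and 27 in con. Of all tested genes, 53.25%, 47.41% and 46.79% were, in that order. The median difference of the 31 was 0.06 in CTdel, 0.02 in ICN and 0.48 in con. Over all tested genes it was 0.02 in CTdel and -0.03 in both other groups. Con replicate 1 was the lowest of the 6 libraries for 18 of the 31 genes, and con replicate 2 the highest for 20. The same counts were not made over all tested genes. Without con replicate 1 the median of the tested members was -0.28 in CTdel and -0.23 in ICN. Without con replicate 2 it was 0.13 and 0.15, so its direction over all 46 tested members changed with the con library used. The ICN median was also above 0 without ICN replicate 2 (0.06), and the CTdel median was -0.02 without CTdel replicate 2. Erythroid and megakaryocyte markers, 6 genes with 2 below FPKM 1 in every library, summed to 209 and 350.2 FPKM in CTdel, 253 and 452 in ICN, and 290.3 and 755 in con; their part in the result was not tested.

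**Figure D3:**
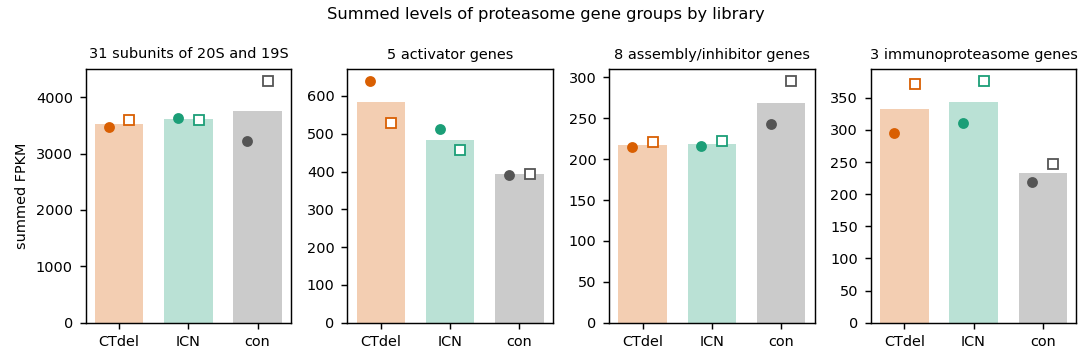
Summed FPKM per library of the 31 widely used 26S subunits, the 5 activators, the 8 assembly factors and inhibitor, and the 3 immunoproteasome subunits, with CTdel, ICN and con from left to right. Bars are means of 2 libraries and points the libraries; the con libraries of the 26S sum (3228 and 4279) enclose the other 4, whereas both con values of the activators (391 and 394) lie below all 4 CTdel and ICN values.

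Among the core subunits, Psmb5, which carries the chymotrypsin-like cutting site, was at 227 and 266 FPKM in CTdel, 209 and 228 in ICN, and 159 and 239 in con. The ICN values lay inside the con range and the higher CTdel value above it, and the log2 difference was 0.33 ± 0.21 (SE, adjusted p = 0.657) in CTdel and 0.16 in ICN (adjusted p = 0.723). Psmb6, the subunit of the caspase-like site, was at 94.7 and 101 FPKM in CTdel, 102 and 119.8 in ICN, and 66.4 and 125 in con, so both groups fell inside the con range (adjusted p = 0.933 and 0.621). Psmb4, the most abundant, was at 197 and 220.4 FPKM in CTdel, 188 and 209 in ICN, and 205 and 257 in con, and the ranges overlapped (adjusted p = 0.859 and 0.611). Psmb4 has no cutting site.

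Psma7, the most abundant alpha subunit, was at 168 and 184 FPKM in CTdel, 192 and 149.5 in ICN, and 175 and 239.7 in con. Its ranges overlapped (adjusted p = 0.831 in CTdel and 0.614 in ICN). Psma8 was at 13.9 and 11.4 FPKM in CTdel, 11.9 and 8.95 in ICN, and 16.5 and 16.8 in con. All 4 CTdel and ICN libraries were below both con libraries, by -0.38 on the log2 scale in CTdel (adjusted p = 0.609) and by -0.64 in ICN (unadjusted p = 0.0233, adjusted p = 0.279). In ICN the other 7 alpha subunits were all higher than con in replicate 1 and lower in replicate 2.

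In the cap, fitted differences of the 6 ATPases ran from -0.43 to -0.14 on the log2 scale in CTdel and from -0.18 to 0.01 in ICN, with medians of -0.19 and -0.06. Psmc2 was at 76.6 and 77.4 FPKM in CTdel, 78.3 and 106 in ICN, and 107 and 100.4 in con. Both CTdel libraries were below both con libraries, with a log2 difference of -0.43 ± 0.22 (SE, adjusted p = 0.577), and the ICN range overlapped that of con (adjusted p = 0.704). Psmc6 was at 67.1 and 62.2 FPKM in CTdel, 72.4 and 77.7 in ICN, and 85.1 and 77.9 in con. Its log2 difference was -0.33 in CTdel, with no overlap (adjusted p = 0.633), and -0.12 in ICN (adjusted p = 0.795). In replicate 2, ICN and con were nearly equal (77.73 and 77.86 FPKM). Psmc3 was at 99.2 and 118 FPKM in CTdel, 109.8 and 133 in ICN, and 101 and 144 in con, and Psmc4 at 87.9 and 95.4, 88.2 and 90.0, and 83.5 and 123 in the same order; both overlapped con.

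Of the 11 non-ATPase subunits, 10 were higher in replicate 1 and lower in replicate 2 in CTdel, the exception being Psmd14, the deubiquitinase of the cap, which was lower in both. Psmd4, a receptor for ubiquitin chains, was at 78.9 and 95.7 FPKM in CTdel, 85.5 and 109.5 in ICN, and 68.5 and 99.5 in con. Psmd7, a scaffold partner of Psmd14, was at 82.7 and 81.7 FPKM in CTdel, 88.5 and 75.5 in ICN, and 75.0 and 136 in con. For both genes the con libraries differed by more than the CTdel libraries did, and the groups overlapped.

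Psmd6 was at 60.4 and 66.5 FPKM in CTdel, 71.9 and 88.7 in ICN, and 54.6 and 79.9 in con. Psmd8 was at 117 and 111 FPKM in CTdel, 125 and 161 in ICN, and 110.5 and 143 in con. Psmd12, the least abundant of the cap subunits in con, was at 54.6 and 55.8 FPKM in CTdel, 59.2 and 56.0 in ICN, and 52.1 and 81.8 in con. All 3 overlapped con, and the adjusted p of the 5 named non-ATPase subunits lay between 0.551 and 0.952.

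The 11S activator genes Psme1 and Psme2, which encode the 2 kinds of subunit of one ring, were higher than con in all 4 CTdel and ICN libraries. Psme1 (chr14:55578494-55581527, GRCm38.p6) was at 247 and 212 FPKM in CTdel, 199.7 and 189 in ICN, and 140.3 and 140.0 in con. The difference was 0.70 ± 0.19 (SE) on the log2 scale in CTdel (unadjusted p = 0.0114, adjusted p = 0.206) and 0.47 ± 0.19 in ICN (adjusted p = 0.336). Psme2 (chr14:55587440-55591101) was at 251 and 179 FPKM in CTdel, 169 and 157 in ICN, and 113 and 91.7 in con. The groups did not overlap, and the difference was 1.05 ± 0.20 in CTdel (unadjusted p = 0.00228, adjusted p = 0.097) and 0.67 ± 0.20 in ICN (adjusted p = 0.257). Fitted with the CTdel and con libraries alone, Psme2 passed (adjusted p = 0.00854), as did 730 genes in all, against 156 in the fit of all 6 libraries.

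Psme2b, on chromosome 11, was at 9.50 and 7.84 FPKM in CTdel, 7.08 and 20.2 in ICN, and 2.1 and 0.45 in con. It was higher in all 4 libraries, by 2.18 ± 0.56 in CTdel (adjusted p = 0.178) and 2.63 ± 0.56 in ICN (adjusted p = 0.17) on the log2(FPKM + 1) scale, which understates the change of a low gene. Its transcript was 99.4% identical to that of Psme2 over 794 aligned bases, and 52% of its 100-base windows occur in Psme2, so reads could have been split between the genes and its value is uncertain. It also passed where the groups were fitted alone, in CTdel (adjusted p = 0.00083) and in ICN (adjusted p = 0.0304).

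The other activators did not share this pattern. Psme3, the 11S form of the nucleus, was at 104 and 102 FPKM in CTdel, 104 and 66.9 in ICN, and 106 and 135 in con (log2 difference -0.21, adjusted p = 0.85 in CTdel and -0.51, adjusted p = 0.42 in ICN). All 4 CTdel and ICN libraries were below both con libraries. Psme4, or PA200, was at 26.7 and 26.1 FPKM in CTdel, 31.9 and 23.2 in ICN, and 30.2 and 26.9 in con; CTdel lay below both con libraries by less than 1 FPKM at its nearest, and ICN overlapped con. Within each library the ratio of Psme3 to Psme1 was 0.420 and 0.482 in CTdel, 0.521 and 0.353 in ICN, and 0.755 and 0.961 in con, with no overlap between con and the others.

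**Figure D4:**
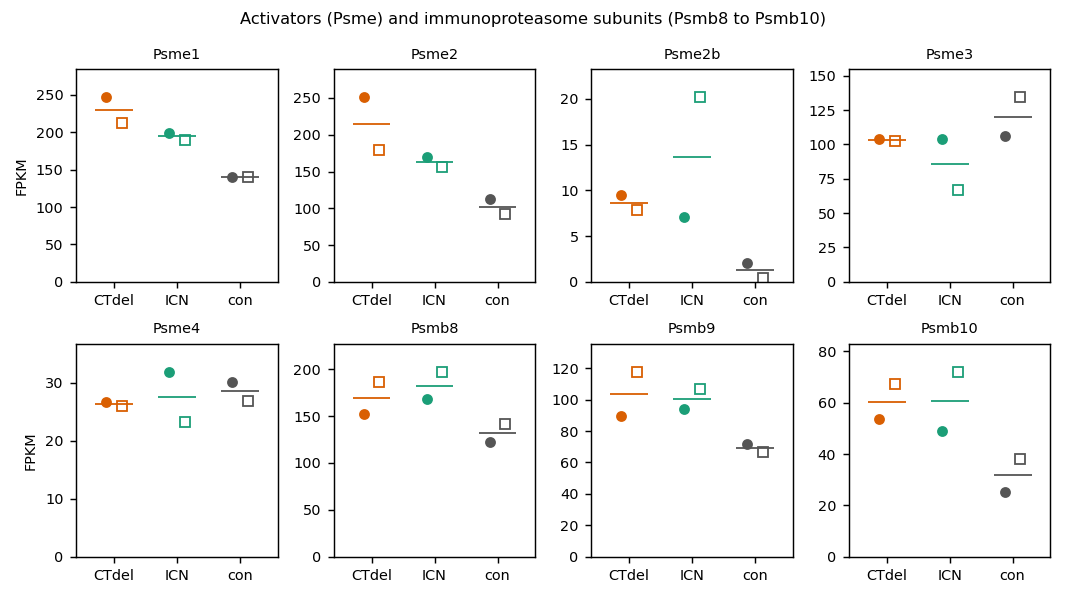
FPKM of the 5 activator genes and the 3 immunoproteasome genes in each library, with CTdel, ICN and con from left to right; short lines are means of 2 libraries, filled circles replicate 1 and open squares replicate 2. Psme1, Psme2 and Psme2b, and Psmb8, Psmb9 and Psmb10, are higher in all 4 CTdel and ICN libraries than in both con libraries, and the ICN values of Psme4 overlap con.

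The immunoproteasome subunits, outside the symbol rule, were higher in the same libraries as Psme1 and Psme2. Psmb10 was at 53.5 and 67.2 FPKM in CTdel, 49.0 and 72.0 in ICN, and 25.4 and 38.1 in con, a log2 difference of 0.93 in CTdel (adjusted p = 0.121) and 0.91 in ICN (adjusted p = 0.174). Psmb9 was at 89.8 and 118 FPKM in CTdel, 93.8 and 107 in ICN, and 71.4 and 66.5 in con (adjusted p = 0.385 and 0.333). Psmb8 was at 152 and 186 FPKM in CTdel, 168 and 197 in ICN, and 122 and 142 in con (adjusted p = 0.597 and 0.336). None of the 3 overlapped con and none passed. All 3 were higher than con in both replicates in CTdel and in ICN (26.2% and 29.8% of all tested genes were). The share of all tested genes whose libraries do not overlap con was not counted, for these or for other genes described so. Fitted with the CTdel and con libraries alone, Psmb10 passed (adjusted p = 0.0226).

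Set against its widely used counterpart in the same library, Psmb10 over Psmb7 was 0.318 and 0.508 in CTdel, 0.306 and 0.466 in ICN, and 0.174 and 0.217 in con, so con was lower than all others. Psmb8 over Psmb5 was 0.670 and 0.699 in CTdel, 0.803 and 0.863 in ICN, and 0.772 and 0.593 in con. Psmb9 over Psmb6 was 0.948 and 1.16 in CTdel, 0.918 and 0.889 in ICN, and 1.08 and 0.530 in con. These 2 ratios in CTdel, and Psmb9 over Psmb6 in ICN, overlapped con.

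Interferon response genes were higher in the same libraries. A list of 17 summed to 1216 and 1237 FPKM in CTdel, 1292 and 3441 in ICN, and 531 and 210.3 in con, with a median log2 difference of 1.84 in CTdel and 2.59 in ICN. Of the 17, 16 were higher in both replicates in CTdel and 17 in ICN (26.2% and 29.8% of all tested genes were). None passed in CTdel or in ICN (1.41% and 0.0362% of all genes did), and 2 passed for both forms together (1.11% of all genes did), namely Ifit2 (adjusted p = 0.0436) and Cxcl10 (adjusted p = 0.0336). The chemokine gene Cxcl10 was at 95.9 and 14.3 FPKM in CTdel, 106 and 139 in ICN, and 2.55 and 0.76 in con. Histone genes, whose RNA lacks a long poly(A) tail and which serve as a library check, summed over 69 genes to 412 and 1034 FPKM in CTdel, 394 and 1311 in ICN, and 203 and 903 in con. Of the 44 tested, 19 were higher in both replicates in CTdel and 37 in ICN (26.2% and 29.8% of all tested genes were), with median log2 differences of 0.36 and 1.17. The part of either list in the Psme and immunoproteasome values was not tested.

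The 7 assembly factors and the inhibitor summed to 215 and 221 FPKM in CTdel, 216 and 222 in ICN, and 243 and 295 in con, so all 4 CTdel and ICN libraries lay below both con libraries. Of the 8 genes, 4 were lower in both replicates in CTdel and 5 in ICN (35.8% and 26.7% of all tested genes were), with median log2 differences of -0.21 and -0.29. Psmg2, a chaperone of the alpha ring, was at 27.2 and 32.4 FPKM in CTdel, 30.3 and 27.9 in ICN, and 46.5 and 44.7 in con. All 4 CTdel and ICN libraries were below both con libraries, by -0.60 ± 0.21 (SE) in CTdel (unadjusted p = 0.0281, adjusted p = 0.332) and -0.63 in ICN (adjusted p = 0.28). Psmg1, its partner in the same chaperone, was at 25.01 and 33.8 FPKM in CTdel, 29.1 and 25.9 in ICN, and 33.3 and 51.7 in con. Its ICN libraries lay below both con libraries, while the higher CTdel library overlapped con (adjusted p = 0.562 in CTdel and 0.355 in ICN).

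Psmg3, of a second chaperone pair, was at 25.3 and 25.2 FPKM in CTdel, 26.4 and 27.9 in ICN, and 30.9 and 44.8 in con. It did not overlap, and the adjusted p was 0.435 in CTdel and 0.4 in ICN. The cap chaperone Psmd5 was at 39.0 and 35.5 FPKM in CTdel, 41.6 and 47.9 in ICN, and 41.9 and 57.7 in con; CTdel lay below con and ICN overlapped (adjusted p = 0.621 and 0.79). Psmd9, another cap chaperone, was at 10.6 and 11.02 FPKM in CTdel, 11.98 and 11.97 in ICN, and 9.38 and 12.9 in con, inside the con range throughout. The inhibitor Psmf1 was at 16.8 and 20.8 FPKM in CTdel, 18.5 and 31.9 in ICN, and 14.5 and 20.6 in con, overlapping in both groups (adjusted p = 0.912 and 0.367). The meiotic gene Psmc3ip was at 8.83 and 11.1 FPKM in CTdel, 10.1 and 4.48 in ICN, and 8.43 and 18.0 in con (adjusted p = 0.878 and 0.456).

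CTdel was also set against ICN. Of the 46 members 0 were called, where 0.0181% of all tested genes were, and 0 had an unadjusted p under 0.05, where 7.13% did. The smallest adjusted p of a member was 0.705. Member differences ran from -0.44 (Psme2b) to 0.48 (Psmc3ip), with a median of -0.04, beside -0.04 over all genes. The median changed with the libraries used. Without ICN replicate 1 it was 0.13, with Psme2b at -1.47 and Psmc3ip at 1.32, and without ICN replicate 2 it was -0.19. Without CTdel replicate 1 it was -0.08, and without CTdel replicate 2 it was 0.05. Of the 6 ATPases, 5 were lower in CTdel than in ICN in both replicates (38.3% of all genes were), by -0.18 in the median. Psme2 was 0.38 higher in CTdel (adjusted p = 0.707) and Psme1 0.23 higher (adjusted p = 0.765), with CTdel above ICN in both replicates for each. A p that misses the threshold here does not show that the forms act alike, since a member's standard error was 0.22 in the median.

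Genes that work with the proteasome but carry no Psm symbol also gave no call. Of 16 tested partners, the median log2 difference was -0.21 in CTdel and -0.05 in ICN. Zfand2a, an arsenite-inducible factor that binds the proteasome, was at 22.1 and 16.9 FPKM in CTdel, 23.6 and 33.7 in ICN, and 8.97 and 6.90 in con. It did not overlap con, and the log2 difference was 1.20 ± 0.28 (SE, adjusted p = 0.145) in CTdel and 1.72 ± 0.28 (adjusted p = 0.127) in ICN. The ubiquitin ligase Ube3c was at 16.1 and 15.7 FPKM in CTdel, 16.0 and 13.1 in ICN, and 20.5 and 23.1 in con, lower without overlap (adjusted p = 0.54 and 0.317).

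Of 6 genes of ubiquitin and its activation, the median difference was 0.05 in both groups. Ubb, a polyubiquitin gene, was at 1269.7 and 1279.6 FPKM in CTdel, 1365 and 1763 in ICN, and 1178 and 935 in con (adjusted p = 0.739 and 0.333). It was above both con libraries in all 4 CTdel and ICN libraries.

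The 10 genes of the Nrf1 pathway had a median difference of 0.02 in CTdel and 0.23 in ICN. Nfe2l1 itself was at 37.6 and 26.2 FPKM in CTdel, 30.9 and 31.7 in ICN, and 64.7 and 26.3 in con, with an overlap in both groups (adjusted p = 0.754 and 0.584). Mafk, a partner of Nrf1 on DNA, was at 28.3 and 20.3 FPKM in CTdel, 31.9 and 38.5 in ICN, and 19.4 and 18.7 in con, above con in all 4 libraries (adjusted p = 0.717 and 0.244). Maff was at 14.1 and 3.02 FPKM in CTdel, 13.5 and 10.9 in ICN, and 6.16 and 3.13 in con, and Mafg at 29.1 and 21.8, 31.4 and 30.8, and 35.5 and 29.8 in the same order. Maff overlapped con in CTdel and Mafg in ICN.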

How the data were processed

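RNA of 6 BaF3 libraries was prepared with the MGIEasy mRNA kit, which the labels' protocols name. The authors deposited FPKM, which scale fragments by gene length and depth, and, per the file headers, gave each replicate number its own table. HISAT2, Bowtie2, RSEM, hg19 and mm10 are named in the submitters' processing notes without versions or roles. Read totals cannot be had from FPKM, so no interval was computed. In the tables, 26 symbols stored as dates were restored from Gene IDs.

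The fit was made on log2(FPKM + 1) by limma (version 3.58.1, R 4.3.3) over all 6 libraries, 2-sided, with a term for the table and a trend in the spread. Benjamini-Hochberg adjustment ran over 11050 genes, those of both tables that reached FPKM 1 in 2 or more libraries. Of the 47 members, Psmb11 failed that filter. The residual degrees of freedom were 2, with a median prior of 3.825. The fit was tested on simulated data with known changes.

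Members and lists were chosen with earlier results of these data known. Named were, in each role, the 2 members with the smallest p against con in CTdel and in ICN and those with the highest and lowest con mean. Also named were all immunoproteasome genes and, in other lists, genes among the 2 with the smallest p in each comparison; some of these are not reported here. Psme3, Psme4, Psmf1, Nfe2l1, Ptprc and Cpa3, and members named only for a direction or motif, were picked outside that rule with their values in view. Alternatives covered the table term, pseudocount, filter, scaling, trend, libraries fitted, threshold and each library left out.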

Additional observations from a re-analysis of the deposited data

Results flagged for a closer look

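Psmb11, the beta subunit of the thymus, differed from con in opposite directions in CTdel and ICN when compared within each replicate. In both replicates it was lower than con in CTdel and higher than con in ICN. It was at 0.44 and 0.33 FPKM in CTdel, 0.68 and 0.62 in ICN, and 0.47 and 0.41 in con, so CTdel overlapped con. The CTdel minus ICN difference was -0.25 on the log2(FPKM + 1) scale. The difference was not tested, since every value is below FPKM 1.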

How the results depend on the processing

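The count of members called stayed at 0 under another pseudocount, no filter, a common sum, quantile normalization, no trend and no replicate block. The replicate number is that of the table and was a block in the model. Deviations of same-numbered libraries correlated at 0.236 (CTdel and ICN), 0.326 (CTdel and con) and -0.0988 (ICN and con). Whether the numbers pair the samples is thus uncertain, least evident for ICN and con. The counts of genes higher or lower in both replicates, or in opposite directions, rest on differences between same-numbered libraries. Without the block, called genes numbered 3 (ICN), 130 (CTdel), 2 (CTdel against ICN) and 132 (both forms). Member medians stayed at -0.06, -0.11, -0.04 and -0.08, which the design fixes: each replicate number holds every group, so the block alters only the spread. Fitting only the groups compared called 1 member and 162 genes in ICN, and 2 members and 730 genes in CTdel. At a threshold of 0.1, 1 member (Psme2) and 262 genes passed in CTdel, 11 genes in ICN and 293 for both forms. With no filter 0 genes passed in each comparison (at an unadjusted p under 0.05, 2328, 1592, 1386 and 2098 did in ICN, CTdel, CTdel against ICN and both forms), and CTdel against ICN with pseudocount 0.1 called 0 (744 at an unadjusted p under 0.05). Leaving out each library in turn, members called ranged from 0 to 2 (ICN, CTdel, CTdel against ICN) and 0 to 4 (both forms), and genes called from 11 to 1470, 109 to 731, 2 to 891 and 48 to 1240 in that order. The highest counts in ICN, CTdel against ICN and both forms came without ICN replicate 1. Member medians ranged from -0.23 to 0.15 in ICN, -0.28 to 0.13 in CTdel, -0.19 to 0.13 in CTdel against ICN and -0.24 to 0.15 for both forms, so each changed sign with a library left out: the extremes against con came without con replicate 1 (lowest) and 2 (highest), and those of CTdel against ICN without ICN replicate 2 (lowest) and 1 (highest). A group left with a single library takes its spread from the other groups. The cause of these moves was not tested. With 2 libraries a group, no read totals and a median standard error of 0.22, changes in the 26S genes of the size of the spread between con libraries were not detectable.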
